A study of Homo sapiens with 2 samples.

Results

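The genes described here encode 6 human poly(A) polymerases, TENT5A, TENT5B, TENT5C, PAPOLA, PAPOLG and MTPAP, taken by symbol from a table of 58302 genes, where each of the 6 had its own row. TENT5A was chosen by its FPKM difference between the libraries and the other members were set beside it, so its difference is given as a description. The samples were 2 RNA-seq libraries of HL60-EIF2S3 cells, 1 per condition. HL60 is a human cell line from a promyelocytic leukemia, here made to carry an EIF2S3 transgene under a Tet-Off promoter, which doxycycline silences. The library labelled DOX(-) came from cells left untreated, with the transgene switched on by design, and the library labelled DOX(+) came from the same engineered line treated with doxycycline, with the transgene switched off by design. The doxycycline dose, the time of treatment, and whether the line was a single clone or a pool are not stated in the sources used here. Doxycycline and the transgene changed together, so their parts cannot be told apart.

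A poly(A) polymerase adds adenosines to the 3′ end of an RNA, and the tail that results protects an mRNA and helps its translation. PAPOLA and PAPOLG are the canonical nuclear enzymes that build the tail after cleavage of the pre-mRNA, and MTPAP does the same for mitochondrial transcripts, in some of which the added adenosines complete the stop codon. The TENT5 proteins are cytoplasmic, non-canonical enzymes that lengthen tails already made. TENT5A is known from collagen mRNA in mouse osteoblasts and from a recessive brittle bone disease, and TENT5C from its loss in multiple myeloma and from immunoglobulin mRNA in mouse B cells. RNA-seq levels measure how much of each polymerase mRNA was present and say nothing of tail length.

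The start regions of the 3 TENT5 genes share a short sequence that was not found in the windows of the other members, and they are shown because the members' levels are set by family below. Each window runs from 250 bases before to 50 bases after the start that RefSeq gives (GRCh38.p14), 5′ to 3′ on the gene's strand, with every forward TATAA in capitals.
TENT5A, chr6:81752632-81752931, minus strand: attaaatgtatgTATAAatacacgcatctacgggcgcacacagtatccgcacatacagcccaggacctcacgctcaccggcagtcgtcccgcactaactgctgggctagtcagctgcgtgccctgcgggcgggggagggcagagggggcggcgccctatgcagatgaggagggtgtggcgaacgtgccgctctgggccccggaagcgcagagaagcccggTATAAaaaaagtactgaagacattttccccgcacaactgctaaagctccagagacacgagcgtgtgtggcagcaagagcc
TENT5B, chr1:27012801-27013100, minus strand: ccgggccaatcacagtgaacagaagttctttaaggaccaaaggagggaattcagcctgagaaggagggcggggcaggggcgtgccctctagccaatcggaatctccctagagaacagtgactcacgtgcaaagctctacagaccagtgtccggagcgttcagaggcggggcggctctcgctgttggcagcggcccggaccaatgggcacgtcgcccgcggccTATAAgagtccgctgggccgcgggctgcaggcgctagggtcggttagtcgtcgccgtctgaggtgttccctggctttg
TENT5C, chr1:117605798-117606097, plus strand: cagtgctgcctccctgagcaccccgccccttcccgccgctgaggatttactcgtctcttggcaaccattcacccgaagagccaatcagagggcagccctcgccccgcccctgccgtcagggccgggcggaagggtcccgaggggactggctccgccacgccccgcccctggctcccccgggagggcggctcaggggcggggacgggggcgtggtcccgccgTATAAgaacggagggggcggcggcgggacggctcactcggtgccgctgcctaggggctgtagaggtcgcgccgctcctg
The TATAA nearest the RefSeq start began 30 bases before it in TENT5A, 28 bases before it in TENT5B and 29 bases before it in TENT5C. These distances hold for the RefSeq starts only. GENCODE release 29 starts TENT5A-201 and TENT5A-202 at 81752708, TENT5A-203 at 81752774, TENT5B at 27012836 and TENT5C at 117605934. By those starts the same TATAA lies inside TENT5A-203 and TENT5C and straddles the start of TENT5A-201 and TENT5A-202. The place of the TATAA relative to the start is therefore not settled. TENT5A had another TATAA farther upstream. Searched on both strands, TATAA was in 20.5% of 34943 such windows, and it was in none of the 3 windows listed for PAPOLA or in the single windows of PAPOLG and MTPAP. CCAAT occurred 3 times in TENT5B, 1 time in TENT5C and 1 time in PAPOLG, and not in TENT5A (34.6% of all windows hold it). GGGCGG occurred 7 times in TENT5C and 2 times each in TENT5A, TENT5B, PAPOLG and 2 of the PAPOLA windows (44.9% of all windows), and CACGTG, the E-box, 1 time in TENT5B alone among these windows (7.23% of all windows). None of these motifs contains another, and a match describes letters only.

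TENT5A has 5 annotated transcripts of very unequal length in GENCODE release 29 (GRCh38), which bears on its values. All 5 share an exon end at chromosome 6 position 81751590 on the minus strand. After it TENT5A-201, TENT5A-202 and TENT5A-203 join the same base of the next exon, and TENT5A-204 and TENT5A-205 each join another. The junctions are shown because they set the long transcripts apart from the short ones: 30 bases of the shared exon are in lower case, the first 30 bases of the next exon in capitals, and all of these bases are coding.
TENT5A-201, TENT5A-202 and TENT5A-203: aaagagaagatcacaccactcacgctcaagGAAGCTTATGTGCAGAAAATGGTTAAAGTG
TENT5A-204: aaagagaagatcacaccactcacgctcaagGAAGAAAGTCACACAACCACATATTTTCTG
TENT5A-205: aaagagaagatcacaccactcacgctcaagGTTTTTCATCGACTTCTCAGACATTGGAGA
The transcripts TENT5A-201, TENT5A-202 and TENT5A-203 are 5609, 5664 and 5537 nucleotides long and enter the last exon at position 81750471, with 774 coding bases there. TENT5A-205 is 356 nucleotides long and enters the same exon later, at position 81750061. TENT5A-204 is 546 nucleotides long and joins an exon at position 81495113, so that it spans 260374 bases of the chromosome, against 1884 to 7045 bases for the other transcripts. The span of the whole gene holds 4 other listed genes, and all 4 were listed at 0 FPKM in both libraries. No listed gene shared exon bases with TENT5A, TENT5B, TENT5C or PAPOLG.

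The values are FPKM, fragment counts corrected for transcript length and for depth, so levels can be set side by side between genes. The steps of the FPKM values gave depths of 16577643 fragments for the library labelled DOX(-) and 18521267 for the library labelled DOX(+). EIF2S3, the gene the design targets, stood at 132.9 FPKM in DOX(-), against 126.2 FPKM in DOX(+) (ratio 1.05, 95% counting interval 0.927 to 1.196 on the shortest transcript and 1.02 to 1.09 on the longest), so these values do not show the overexpression that the design gives to DOX(-), and both libraries are called by their labels below. With 1 library per condition there is no spread between cultures, no test was made, and every interval covers counting error only. Of the 9 promyelocyte markers ELANE, PRTN3, CTSG, AZU1, MYB, CD33 and CEBPE were between 8.87 and 689.2 FPKM in DOX(-) and between 8.89 and 569.8 FPKM in DOX(+). AZU1, a granule protein gene, was at 75.98 FPKM in DOX(-), against 52.3 FPKM in DOX(+), and CEBPE, a granulocyte transcription factor gene, at 8.93 FPKM in DOX(-), against 12.6 FPKM in DOX(+). Of these 7 genes 4 were higher in DOX(-) and 3 lower. The 4 were AZU1, ELANE, PRTN3 and CTSG (ratios 1.45, 1.32, 1.23 and 1.21), with counting intervals above 1 on the shortest transcripts. Of the 3, CEBPE had a ratio of 0.708 (counting interval 0.597 to 0.837). CD33 and MYB were nearly level (ratios 0.998 and 0.996), with counting intervals that include equal levels. All 9 markers summed to 1398 FPKM in DOX(-), against 1129 FPKM in DOX(+). KIT was at 0.783 FPKM in DOX(-), against 0.862 FPKM in DOX(+), and MPO, a defining marker, at 0.274 FPKM in DOX(-), against 0.469 FPKM in DOX(+). Of 13 genes listed as markers of other cell types, 5 were at 0 in both libraries, and the list summed to 11.8 FPKM in DOX(-), against 13.0 FPKM in DOX(+). PECAM1 alone reached 1 FPKM, at 10.8 FPKM in DOX(-), against 11.8 FPKM in DOX(+), and no other cell type is inferred from it. In bulk RNA, fewer cells of a type and less RNA per cell cannot be told apart.

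TENT5A was the member that differed. Its level was 3.32 FPKM in the library labelled DOX(-), against 28.0 FPKM for the library labelled DOX(+) (ENSG00000112773, chromosome 6, 81491439 to 81752774). On the log2(FPKM + 1) scale the difference was -2.75, DOX(-) minus DOX(+), and by plain FPKM TENT5A was 8.43-fold higher in DOX(+). The ratio of DOX(-) to DOX(+) was 0.119, with a counting interval of 0.0721 to 0.192 when every fragment is counted on the shortest transcript, the choice that gives the fewest fragments. Only 7 of the 11525 genes tested (those of 1 FPKM or more in at least 1 library) had a lower log2 ratio. In DOX(-) the level of TENT5A lay above 35.2% of the 9283 protein-coding genes among these, and in DOX(+) above 89.8%. Its nearest protein-coding neighbours did not share the difference: IBTK, 417209 bases away, was at 5.29 FPKM in DOX(-), against 5.74 FPKM in DOX(+), and BCKDHB, 1145169 bases away on the other side, at 7.22 FPKM in DOX(-), against 7.13 FPKM in DOX(+).

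The relatives of TENT5A did not differ in this way. TENT5C (ENSG00000183508, chromosome 1, 117605934 to 117628372) has 1 annotated transcript of 5751 nucleotides, so its FPKM gives whole fragments: 1055 in DOX(-) and 1097 in DOX(+). That came to 11.1 FPKM in DOX(-), against 10.3 FPKM in DOX(+) (ratio 1.07, counting interval 0.986 to 1.17), and the interval includes equal levels. TENT5B (ENSG00000158246, chromosome 1, 27005020 to 27012836) was listed at 0 in both libraries, and 3 fragments of its 2368-nucleotide transcript, the limit used here for a count of 0, would be 0.0764 FPKM in DOX(-), against 0.0684 FPKM in DOX(+). TENT5B was therefore not detected at this depth. The upper ends of its exact 95% Poisson intervals, the kind used for the levels of the other members, were 0.0940 FPKM in DOX(-) and 0.0841 FPKM in DOX(+).

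The nuclear and mitochondrial enzymes lay close together in the libraries. PAPOLA, the main nuclear poly(A) polymerase (ENSG00000090060, chromosome 14, 96501433 to 96567111), was at 15.4 FPKM in DOX(-), against 16.9 FPKM in DOX(+), a log2 ratio (of FPKM + 1) of -0.13. PAPOLG, its nuclear paralog (ENSG00000115421, chromosome 2, 60756230 to 60802085), was at 3.18 FPKM in DOX(-), against 3.26 FPKM in DOX(+), a log2 ratio of -0.03. MTPAP (ENSG00000107951, chromosome 10, 30309801 to 30374448) was at 4.25 FPKM in DOX(-), against 5.52 FPKM in DOX(+), a log2 ratio of -0.31. On the shortest transcripts the counting intervals of these ratios were 0.706 to 1.17 for PAPOLA, 0.552 to 1.62 for PAPOLG and 0.525 to 1.13 for MTPAP, and all 3 include equal levels. On the longest transcripts those of PAPOLA (0.843 to 0.986) and MTPAP (0.676 to 0.877) lay below 1, so whether these small differences pass counting error turns on which transcripts the fragments came from. MTPAP shares exon bases on its own strand with GOLGA2P6 and MIR7162, both listed at 0, and PAPOLA overlaps AL163051.1 on the opposite strand, which was at 0.838 FPKM in DOX(-), against 0.893 FPKM in DOX(+).

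**Figure D1:**
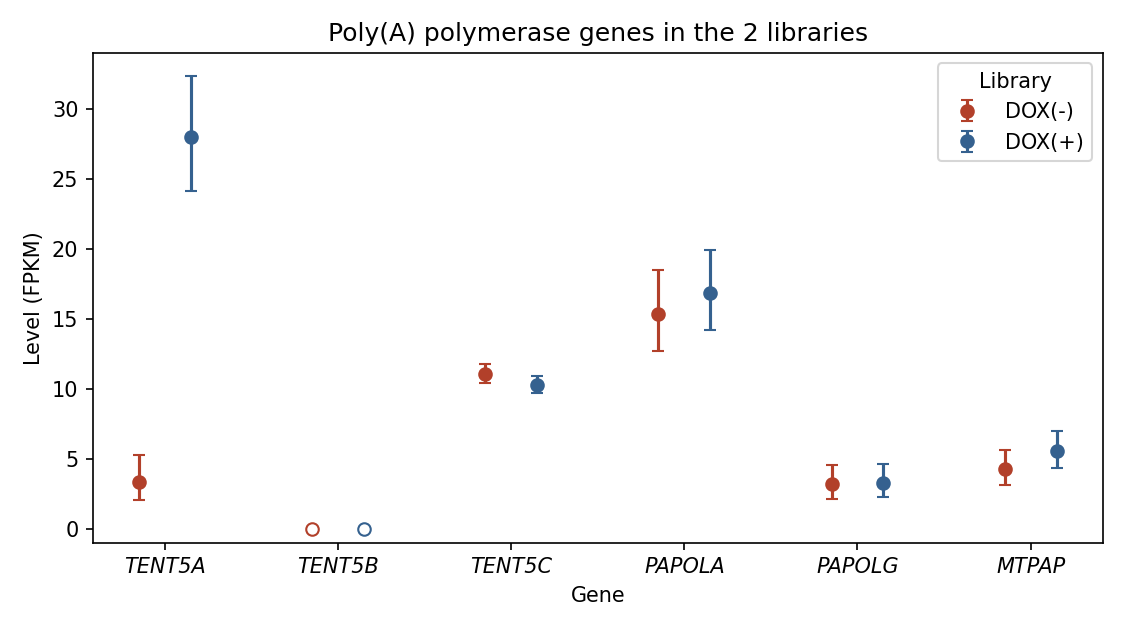
Level in FPKM (y axis) of the 6 poly(A) polymerase genes (x axis) in the library labelled DOX(-) and the library labelled DOX(+). Bars are 95% counting intervals on the shortest annotated transcript and open circles are values listed at 0. TENT5A is at 3.32 FPKM in DOX(-), against 28.0 FPKM in DOX(+), and the intervals of each other detected member overlap between libraries.

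The order of the members by level differed between the libraries through TENT5A. Counted on the shortest transcripts, PAPOLA came first in DOX(-), with an interval of 12.7 to 18.5 FPKM, then TENT5C (10.4 to 11.8 FPKM), then MTPAP (3.15 to 5.62 FPKM), TENT5A (2.07 to 5.23 FPKM) and PAPOLG (2.08 to 4.53 FPKM). The intervals of the last 3 overlap, so on the shortest transcripts their order in DOX(-) was not resolved. On the longest transcripts MTPAP (3.84 to 4.70 FPKM) lay above TENT5A (2.96 to 3.71 FPKM) and PAPOLG (2.84 to 3.55 FPKM), which still overlapped. In DOX(+) TENT5A came first (24.2 to 32.4 FPKM), then PAPOLA (14.2 to 20.0 FPKM), TENT5C (9.70 to 10.9 FPKM), MTPAP (4.31 to 6.96 FPKM) and PAPOLG (2.28 to 4.64 FPKM). Of these neighbours, only MTPAP and PAPOLG had overlapping intervals, and on the longest transcripts theirs (5.08 to 5.99 FPKM and 2.94 to 3.61 FPKM) were separate. The 6 genes summed to 37.2 FPKM in DOX(-), against 63.9 FPKM in DOX(+), and without TENT5A to 33.9 FPKM in DOX(-), against 36.0 FPKM in DOX(+). TENT5A made up 8.92% of the sum in DOX(-) and 43.8% in DOX(+), and the TENT5 family 38.7% in DOX(-) and 59.9% in DOX(+).

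Against all genes, 1 of the 5 members that reached 1 FPKM was at least 2-fold apart on the log2(FPKM + 1) scale, beside 2.03% of all genes tested, and that member is the one chosen for its difference. The same 1 of 5 was at least 1.5-fold apart, beside 7.17% of all genes. The median log2 ratio of the 5 was -0.13 and that of all genes tested -0.02, and without TENT5A the median of the other 4 was -0.08.

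**Figure D2:**
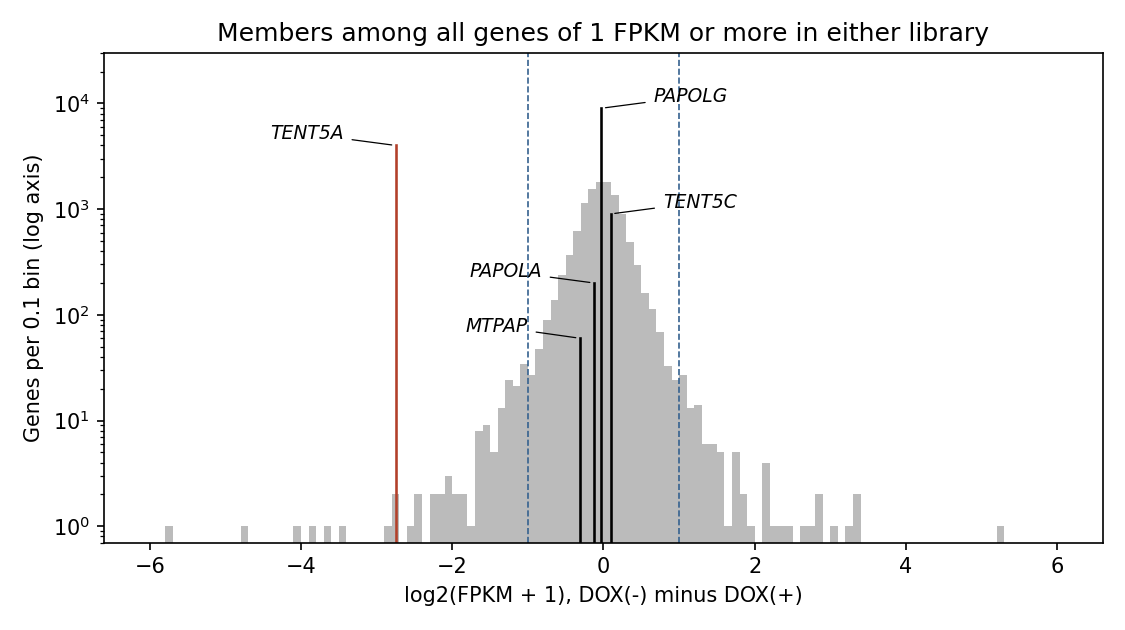
Histogram of the difference in log2(FPKM + 1), DOX(-) minus DOX(+) (x axis), over the 11525 genes tested, with genes per bin on a log y axis. Lines mark the 5 members tested, with heights that carry no meaning, and dashed lines mark 2-fold. TENT5A lies at -2.75 and the other 4 between -0.31 and 0.09.

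How many fragments the TENT5A value stands for depends on its transcripts. If all fragments came from TENT5A-202, the longest, 3.32 FPKM would be 312 fragments in DOX(-) and 28.0 FPKM would be 2936 fragments in DOX(+). If all came from TENT5A-205, the shortest, the same values would be 19.6 fragments in DOX(-) and 184.5 fragments in DOX(+). In depth-scaled fragments (FPKM times the transcript length in kb), the range from shortest to longest is 1.18 to 18.8 in DOX(-) and 9.96 to 158.5 in DOX(+), and these ranges overlap. How the authors' pipeline divided fragments between transcripts is not given in the sources used here, and its part in the TENT5A difference was not tested. The ranges also overlap for PAPOLA, PAPOLG and MTPAP, whose longest transcripts are 10.04, 11.3 and 8.06 times their shortest. TENT5C, with its single transcript, is free of this limit.

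**Figure D3:**
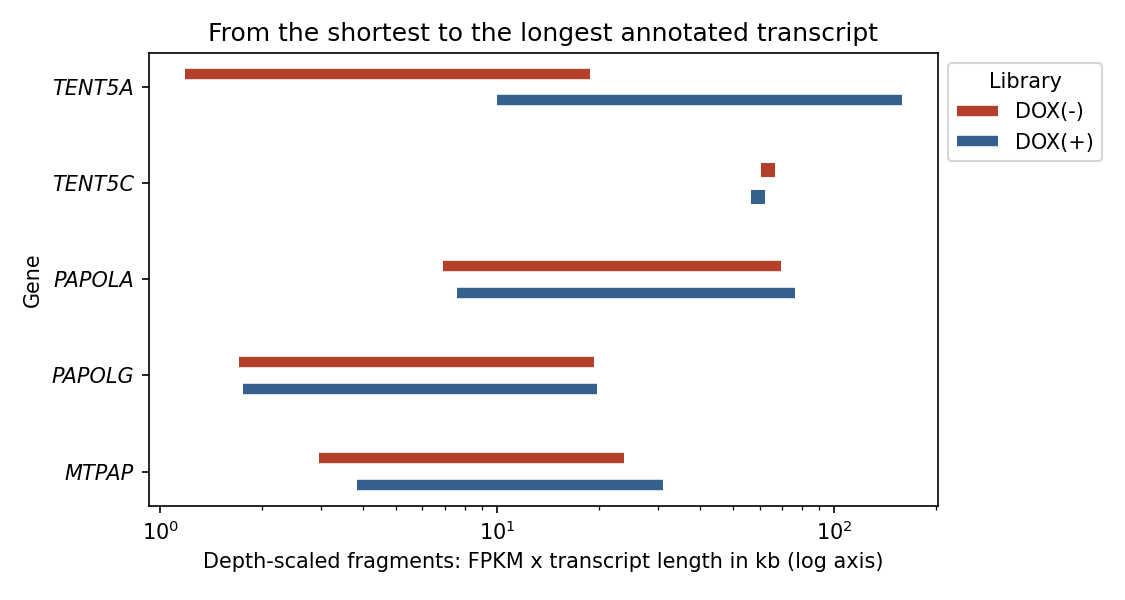
Depth-scaled fragments, FPKM times transcript length in kb (log x axis), that the FPKM of each detected member (y axis) stands for, in the library labelled DOX(-) and the library labelled DOX(+). Each bar runs from all fragments on the shortest to all on the longest annotated transcript, and squares mark the single transcript of TENT5C. For TENT5A the bars run from 1.18 to 18.8 in DOX(-) and from 9.96 to 158.5 in DOX(+), and overlap.

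The same limit holds for many genes past 2-fold. At 5 FPKM or more in either library, 77 protein-coding genes were at least 2-fold apart. Of these, 25 kept separate fragment ranges whichever annotated transcripts were used, and 52, TENT5A among them, did not. By structure, genes like TENT5A, whose longest transcript is at least 10 times the shortest, were 2-fold apart in 1.12% of cases (17 of 1518). Genes with several transcripts of less unequal length were 2-fold apart in 1.6% of cases (52 of 3247), and genes with 1 transcript in 2.2% (8 of 363). This split was added after seeing the data, and the differences between the shares were not tested.

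The 4 protein-coding genes of 5 FPKM or more with log2 ratios nearest to that of TENT5A, by absolute difference over the 2 libraries, were AC104109.3, ANXA2R, AC118553.2 and MRPL34. On the log2(FPKM + 1) scale their ratios were -2.84, -2.52, -2.23 and -2.14, beside -2.75 for TENT5A. By plain FPKM they were 17.0-, 17.2-, 11.6- and 5.46-fold higher in DOX(+), beside 8.43-fold for TENT5A. In DOX(-) AC104109.3, ANXA2R and AC118553.2 were at 0.624, 0.414 and 0.536 FPKM, where the pseudocount shrinks a ratio most, so the choice of nearest genes depends on that scale. Unlike TENT5A, all 4 kept separate fragment ranges whichever annotated transcripts were used. Ranges separate only where the fold difference passes the length ratio of the longest to the shortest transcript. That length ratio was 1 for AC104109.3, 1.77 for ANXA2R, 2.70 for AC118553.2 and 2.40 for MRPL34, beside 15.9 for TENT5A. AC104109.3 shares exons with SKP1 and PPP2CA, and AC118553.2 with MFSD14A and SLC35A3, so their values are uncertain.

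Of the other genes that make, bind or shorten RNA tails, few differed. Over 8 lists, 76 of 88 genes reached 1 FPKM, and 2 of these (2.63%, beside 7.17% of all genes) were at least 1.5-fold apart, 1 higher in DOX(-), beside 3.11% of all genes, and 1 lower, beside 4.06%. None of the 76 was 2-fold apart on the log2(FPKM + 1) scale that these counts use, and their median log2 ratio was -0.05. The counts turn on that scale: by plain FPKM, a rule added after seeing the data, 1 gene was 1.5-fold higher in DOX(-) and 3 were lower. The share of all genes was not counted by plain FPKM, so these counts cannot be set against it. With a pseudocount of 0.1 the counts were also 1 higher and 3 lower, beside 5.48% and 7.64% of all genes. At 5 FPKM or more 0 were higher and 0 lower, beside 2.70% and 3.44% of all genes. Scaled to genes outside the mitochondrial genome 0 were higher and 3 lower, beside 2.52% and 5.13%. The gene higher in DOX(-) was CLP1, an RNA kinase of cleavage factor II, at 3.38 FPKM in DOX(-), against 1.87 FPKM in DOX(+), with a counting interval of the ratio of 0.998 to 3.42 on the shortest transcript, which just includes equal levels, and of 1.37 to 2.40 on the longest, which does not. The gene lower in DOX(-) was CNOT6L, a catalytic deadenylase of the CCR4-NOT complex, which removes the tails that poly(A) polymerases make. CNOT6L was at 1.51 FPKM in DOX(-), against 3.62 FPKM in DOX(+) (ratio 0.417, counting interval 0.206 to 0.777 on the shortest transcript and 0.356 to 0.488 on the longest), so by plain FPKM it was past 2-fold.

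The other terminal nucleotidyltransferases had a median log2 ratio of -0.06 over the 6 of 8 genes tested, and none was 1.5-fold apart on the log2(FPKM + 1) scale. TENT4B, a nuclear poly(A) polymerase of aberrant RNA, had the lowest of these ratios, at 1.22 FPKM in DOX(-), against 1.91 FPKM in DOX(+), and was past 1.5-fold by plain FPKM (ratio 0.638, counting interval 0.420 to 0.973 on the shortest transcript). TENT4B is named after its values were seen. TENT4A, which can mix other bases into tails, was at 3.13 FPKM in DOX(-), against 4.23 FPKM in DOX(+). TUT1, the uridylyltransferase of U6 RNA, was at 2.68 FPKM in DOX(-), against 1.96 FPKM in DOX(+). On the shortest transcripts the counting intervals of TENT4A (0.453 to 1.21) and TUT1 (0.741 to 2.72) include equal levels, and on the longest those of TENT4A (0.635 to 0.863) and TUT1 (1.07 to 1.75) do not. TENT5D, the fourth family member, and PAPOLB, the testis paralog of PAPOLA, were listed at 0 in both libraries.

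Among 18 cleavage and polyadenylation factors, which cut the pre-mRNA and recruit PAPOLA, the median was -0.06. In this list 1 gene, CLP1, was 1.5-fold apart, beside 7.17% of all genes. RBBP6, a ubiquitin ligase bound to this machinery, was at 5.22 FPKM in DOX(-), against 7.99 FPKM in DOX(+), past 1.5-fold by plain FPKM (ratio 0.653, counting interval 0.441 to 0.964 on the shortest transcript). Of the poly(A) binding proteins and partners, 10 of 13 genes were tested and none was 1.5-fold apart (median -0.03), with nuclear PABPN1 at 7.69 FPKM in DOX(-), against 10.2 FPKM in DOX(+), and the RNA-binding protein gene LARP4 at 4.79 FPKM in DOX(-), against 5.51 FPKM in DOX(+). Of 23 deadenylases and adaptors, 22 were tested, with a median of 0.04 and 1 gene, CNOT6L, past 1.5-fold, beside 7.17% of all genes. BTG1, an adaptor of CCR4-NOT, was at 13.0 FPKM in DOX(-), against 9.51 FPKM in DOX(+).

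The 9 mitochondrial RNA factors set beside MTPAP had a median of -0.10, and none was 1.5-fold apart. FASTKD5, which processes mitochondrial transcripts, has a single annotated transcript and stood at 15.6 FPKM in DOX(-), against 20.9 FPKM in DOX(+) (ratio 0.743, counting interval 0.676 to 0.816, which lies below 1). TBRG4 (FASTKD4), of the same protein family, went the other way, at 12.4 FPKM in DOX(-), against 8.91 FPKM in DOX(+). Beside these, the share of summed FPKM held by the mitochondrial genome was 22.5% in DOX(-), against 27.7% in DOX(+). The MTPAP ratio was 0.771, with a counting interval of 0.525 to 1.13 on the shortest transcript and 0.676 to 0.877 on the longest. Whether the mitochondrial share and the MTPAP level are related was not tested. The 9 nuclear exosome genes had a median of -0.02, and none was 1.5-fold apart. DIS3, an exosome nuclease, was at 6.84 FPKM in DOX(-), against 8.48 FPKM in DOX(+), and ZFC3H1, of the exosome adaptor for poly(A) RNA, at 3.03 FPKM in DOX(-), against 3.74 FPKM in DOX(+). FNDC3A and FNDC3B, membrane partners of TENT5C, were at 2.99 and 4.29 FPKM in DOX(-) and at 3.21 and 5.71 FPKM in DOX(+). None of the 6 cytoplasmic polyadenylation regulators, which include the CPEB family, reached 1 FPKM.

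**Figure D4:**
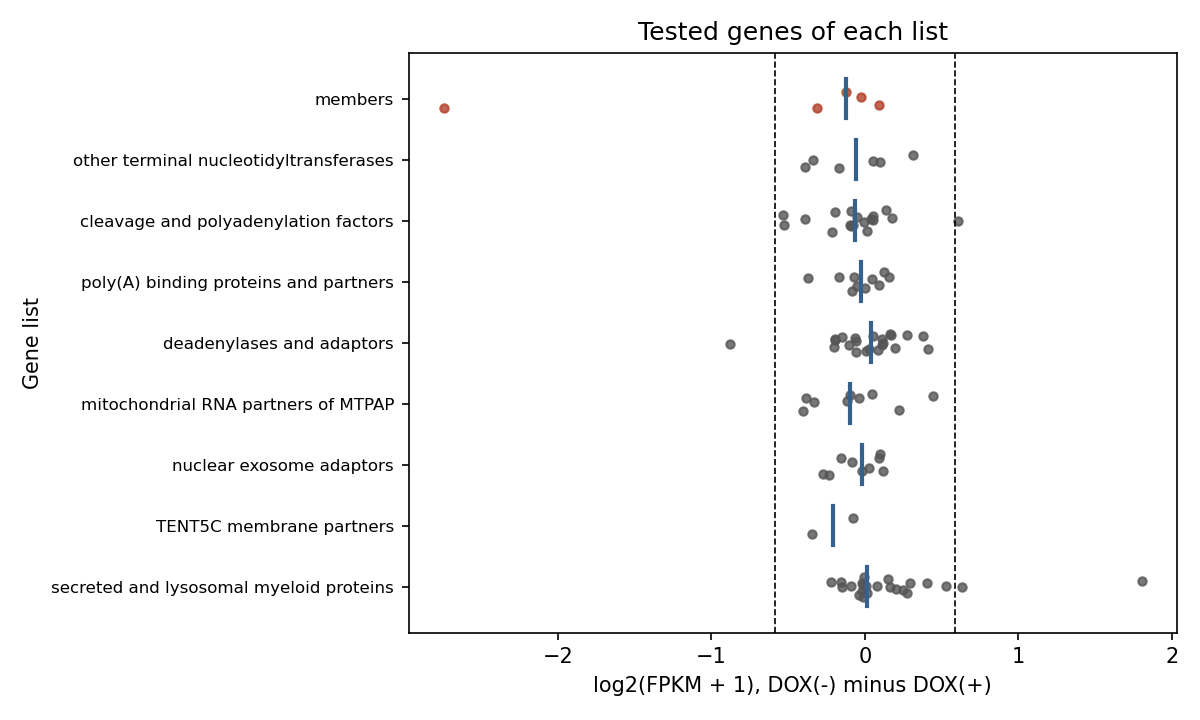
Difference in log2(FPKM + 1), DOX(-) minus DOX(+) (x axis), of each tested gene in the members and in 8 gene lists (y axis), which are the tail factor lists with tested genes and the secreted and lysosomal myeloid proteins. Blue bars are list medians and dashed lines mark 1.5-fold. TENT5A is at -2.75, and CLP1, CNOT6L, CST7 and CCL5 lie past 1.5-fold in the other lists.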

How the data were processed

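The authors deposited FPKM per gene for 2 libraries of total RNA in 1 table, per the file headers. Tools named in the submitters' processing notes, without their parts, are StringTie 1.3.4b, edgeR, HISAT2 2.1.0 and CASAVA 1.8, with hg38 (GRCh38) as the build. No annotation release is stated in the sources used here. GENCODE release 29 held 58039 of the 58302 identifiers, 56636 of them at the deposited locus, including all members. Differences in log2(FPKM + 1), DOX(-) minus DOX(+), were taken over genes of 1 FPKM or more in either library, with a size rule of 2-fold for genes and 1.5-fold for list counts. The pseudocount of 1 pulls low genes towards 0. Members and the 13 gene lists (135 symbols) were chosen with earlier results of these data known. Named genes were the members, list genes past 1.5-fold, the 2 largest differences per list at 2 FPKM or more, the neighbours of TENT5A, 4 genes nearest to it in ratio, and EIF2S3. The promyelocyte markers, used to check the cell label, and PAPOLB, TENT5D and TENT4B are named beside this rule.

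Depth came from single-transcript genes, where 99.98% (DOX(-)) and 99.97% (DOX(+)) of values up to 100 fragments were whole within 0.02. Ratios have exact 95% Clopper-Pearson intervals conditional on the total, and levels exact Poisson intervals. Scoring was tested on simulated data (Python 3.11.15, scipy 1.17.1).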

Additional observations from a re-analysis of the deposited data

How the results depend on the processing

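TENT5A was chosen by its FPKM difference, and a filter keeps or drops genes without changing their values. Its stability under such settings was largely given in advance and is no independent support. TENT5A kept its direction and stayed past 2-fold under each of 7 other settings (2 pseudocounts, 2 filters, 3 scalings), with log2 ratios from -3.04 to -2.75. The exception, chosen after seeing the data, moves fragments between transcripts: with all DOX(-) fragments on the longest and all DOX(+) fragments on the shortest, the log2 ratio of depth-scaled fragments was 0.92, and with the opposite placement -7.07. The signs of TENT5C, PAPOLA and MTPAP held under all 7, and that of PAPOLG under the 6 that keep it, since it does not reach 5 FPKM. TENT5B, at 0, has none. The count of members past 2-fold or 1.5-fold stayed at 1. Among the other tail factors the counts were small: 3 genes (CNOT6L, RBBP6 and TENT4B) were 1.5-fold lower with a pseudocount of 0.1, beside 7.64% of all genes. By plain FPKM 3 were lower, and the share of all genes was not counted by that rule. At 5 FPKM or more 0 were higher and 0 lower, beside 2.70% and 3.44% of all genes, and 0 were higher and 3 lower (CNOT6L, CPSF6 and RBBP6), beside 2.52% and 5.13%, when scaled to genes outside the mitochondrial genome. The causes were not tested. Over 14 nucleotidyltransferases the TENT5 share was 27.2% in DOX(-) and 47.5% in DOX(+), since more genes enter the sum. On the longest transcripts the upper ends of the PAPOLA and MTPAP ratio intervals were 0.986 and 0.877. No paired analysis was possible because each condition has 1 library.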

Other observations

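Genes for secreted and lysosomal myeloid proteins, the class of mRNA that TENT5 enzymes are known to act on in mouse macrophages, had a median log2 ratio of 0.01. Of 24 genes, 23 were tested, 2 were at least 1.5-fold higher in DOX(-), beside 3.11% of all genes, and 0 were lower, beside 4.06%. The chemokine gene CCL5 was at 31.8 FPKM in DOX(-), against 8.39 FPKM in DOX(+) (ratio 3.79, counting interval 3.05 to 4.71). The cystatin gene CST7, with 1 annotated transcript, was at 388.9 FPKM in DOX(-), against 250.4 FPKM in DOX(+) (ratio 1.55, counting interval 1.49 to 1.62). Lysozyme (LYZ) was at 101.5 FPKM in DOX(-), against 102.8 FPKM in DOX(+), and the proteoglycan gene SRGN at 1063 FPKM in DOX(-), against 1072 FPKM in DOX(+). LYZ and SRGN are named after their values were seen.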
